A study of Mus musculus with 12 samples.

Results

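The 8 genes described here are Ccn1, Ccn2, Postn, Tgfbi, Pmepa1, Skil, Ski and Tgif1, which are known from other systems as genes switched on by TGF-β through SMAD proteins or as proteins that feed back on that pathway. They were chosen by name from that knowledge, with earlier results of these arrays known, and make up 8 of the 18193 genes measured and 18 of the 45037 probe sets. The probe set with the highest mean signal on the 12 arrays stands for each gene, and the others are given beside it.

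RNA was taken from whole tongues of C57BL/6J mouse embryos (embryonic day 13.5), and each sample was hybridised to 1 Affymetrix Mouse Genome 430 2.0 array. The 6 mutant samples had the genotype Myf5-Cre;Smad4flox/flox and the 6 control samples Myf5-Cre;Smad4flox/+. Both groups thus carried the Cre recombinase driven by the muscle determination gene Myf5 and at least 1 floxed copy of Smad4, so the controls were heterozygous in Cre-expressing cells rather than wild type, and cells that never expressed the Cre kept Smad4 in both groups. The labels call the arrays of each group biological replicates and do not give litters, the number of tongues pooled in a sample or a batch.

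TGF-β ligands activate receptor kinases that phosphorylate SMAD2 and SMAD3, which join SMAD4 and bind DNA with other factors. Among the genes so switched on are secreted matrix proteins, which change the surroundings of the cell, and inhibitors, which dampen the same signal. Several of them answer to other inputs as well: Ccn1 and Ccn2 are standard targets of YAP with its TEAD partners, of serum response factor and of mechanical strain, and Postn and Tgfbi are made mainly by connective tissue cells.

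Values are log2 signals as the authors deposited them. A probe set has its own brightness, so levels are compared only between arrays and not between genes. Differences are mutant minus control, with the standard error of the limma fit and p values adjusted by Benjamini-Hochberg over all 18193 genes, with a threshold of 0.05. In tissue RNA, fewer cells of a type and less RNA per cell cannot be told apart.

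The upstream sequence of the member that fell and has an entry in the RefSeq promoter table, Ccn1, is shown first, beside that of Tgfbi, a matrix gene of the same group that did not pass. Both are the 250 bases before the annotated start on assembly GRCm38.p6, read in the direction of the gene, and capitals mark the letters named below. The Ccn1 window lies at chr3:145649986-145650235 on the minus strand and the Tgfbi window at chr13:56609336-56609585 on the plus strand.
Ccn1: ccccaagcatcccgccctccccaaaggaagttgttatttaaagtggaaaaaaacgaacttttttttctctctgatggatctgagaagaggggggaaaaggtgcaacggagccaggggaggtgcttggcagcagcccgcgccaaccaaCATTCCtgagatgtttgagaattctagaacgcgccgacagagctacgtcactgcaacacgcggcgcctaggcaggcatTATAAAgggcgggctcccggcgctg
Tgfbi: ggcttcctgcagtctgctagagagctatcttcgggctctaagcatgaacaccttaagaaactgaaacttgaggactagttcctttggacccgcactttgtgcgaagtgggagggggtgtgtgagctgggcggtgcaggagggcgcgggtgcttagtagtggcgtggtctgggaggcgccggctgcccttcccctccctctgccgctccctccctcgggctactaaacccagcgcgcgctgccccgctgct
In the Ccn1 window the capitals are CATTCC, the reverse complement of the TEAD motif GGAATG, at positions −103 to −98 from the start, and the TATA box TATAAA at positions −25 to −20. GGAATG on either strand was found in 12.6% of the 32851 windows of all genes, and TATAAA in 12.4%. The Tgfbi window held neither. It also held no match to the 6-letter SMAD box CAGACA (17.1% of all windows) or to the SMAD palindrome GTCTAGAC (0.167%), and nor did the Ccn1 window. Shorter SMAD letters were not searched, and GTCTG, part of the reverse complement TGTCTG, can be read in the Tgfbi window. The AP-1 motif TGANTCA (6.75% of all windows) and the CArG box bound by serum response factor (1.47%) were found in no window of the members. All were searched on both strands and did not overlap in these windows. Of the 8 genes, 5 had an entry in the table, with 10 windows between them, Postn and Tgif1 having more than 1 annotated start each. CAGACA, or its reverse complement, was found in 2 of the Tgif1 windows, TATAAA in 1 of the Postn windows, and none of these 6 motifs in the Ski window. A match is a description of letters and not of binding.

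The signals of Ccn1 and Ccn2 were lower in mutant tongues, and those of the other 6 genes did not pass the test. Both genes encode secreted matricellular proteins of the CCN family, which bind integrins and heparan sulphate and act on adhesion, migration and matrix deposition. Ccn2 read 60.0% of its control signal (95% interval 48.6% to 74.2%) and Ccn1 69.4% (60.6% to 79.6%). Of all genes tested, 4.80% were called lower and 6.30% higher in the mutant, against 2 of 8 lower and 0 of 8 higher here. Skeletal muscle markers were lower on the same mutant arrays, with no overlap of their mean signal per array, and their part in these falls was not tested. The median difference of the 8 genes was −0.05 on the log2 scale, and that of all genes 0.01.

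**Figure D1:**
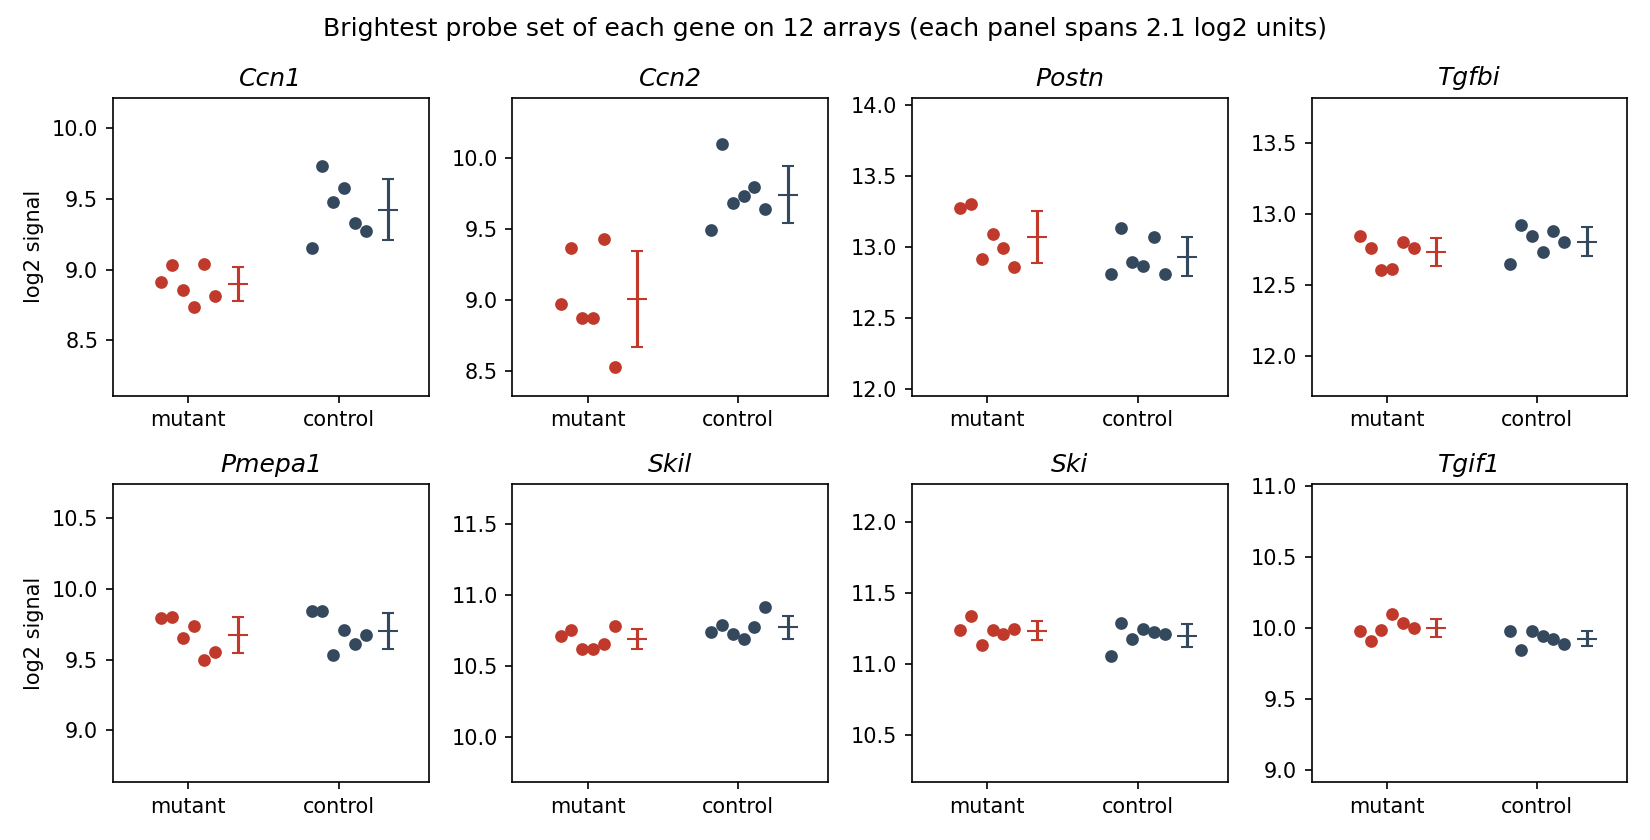
Log2 signal (y axis) of the brightest probe set of each of the 8 genes on the 6 mutant (red) and 6 control (blue) arrays, in order of replicate number, with the mean ± SD at the right of each group; each panel has its own range but the same span. Ccn1 and Ccn2 lie lower on all 6 mutant arrays than on any control array, and the groups overlap in the other panels.

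Ccn1, an immediate-early gene of growth factor and strain responses, read 8.74 at the lowest, 8.88 at the median and 9.04 at the highest in mutants, against 9.15, 9.41 and 9.73 in controls. All 6 mutants lay below all 6 controls. The means were 8.90 ± 0.12 in mutants and 9.42 ± 0.21 in controls (SD, n = 6 each), a difference of −0.53 ± 0.09 (SE, adjusted p = 0.00255 by limma). Of all genes, 320, or 1.76%, differed by as much in this direction.

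The matrix protein gene Ccn2, long known as connective tissue growth factor, read 8.53 at the lowest, 8.92 at the median and 9.43 at the highest in mutants, against 9.50, 9.71 and 10.10 in controls. The groups did not overlap, though the gap between mutant 5 at 9.43 and control 1 at 9.50 was small beside the spread within groups. The means were 9.01 ± 0.34 in mutants and 9.74 ± 0.20 in controls (SD, n = 6 each), a difference of −0.74 ± 0.14 (SE, adjusted p = 0.00469 by limma). Of all genes, 179, or 0.984%, differed by as much in this direction. Such separation, with all mutants below all controls, was seen for 2.90% of all genes, and the opposite, with all mutants above all controls, for 3.40% of all genes and none of the 8.

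The same arrays stood at the ends of both groups. Mutant 5 was the highest mutant for Ccn1 and for Ccn2, and mutant 2 was next to it for both. Control 2 was the highest and control 1 the lowest control for both genes. At the low end the mutants differed, with mutant 4 lowest for Ccn1 and mutant 6 lowest for Ccn2. The difference between the log2 signals of Ccn1 and Ccn2 on an array was −0.11 ± 0.24 in mutants and −0.32 ± 0.11 in controls (SD, n = 6 each), so the fall of Ccn2 exceeded that of Ccn1 by 0.21 on the log2 scale, which did not pass (exact permutation test, 2-sided p = 0.0758, adjusted p = 0.112 over the 28 pairs of the 8 genes, a test chosen after the values were seen).

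**Figure D2:**
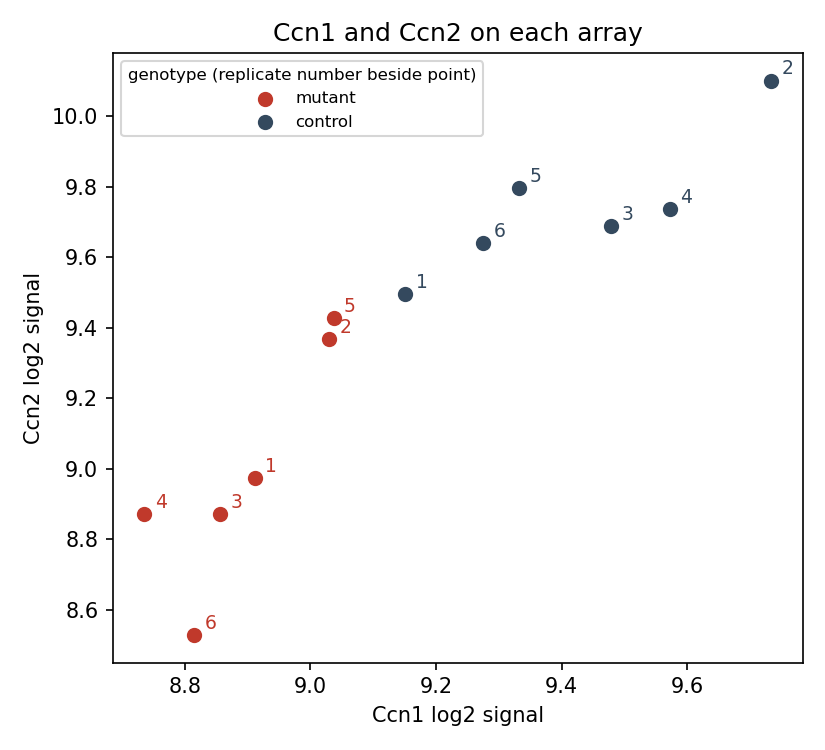
Log2 signal of Ccn1 (x axis) and Ccn2 (y axis) on each of the 6 mutant (red) and 6 control (blue) arrays, with the replicate number beside each point. Mutant 5 is the highest mutant and control 2 the highest control on both axes, and the mutants occupy the lower left.

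The 4 probe sets of Ccn1 all lay lower in mutants, but only the brightest passed on its own. The second, 1438133_a_at, read 8.41 ± 0.24 in mutants and 8.86 ± 0.40 in controls (SD, n = 6 each), a difference of −0.44 ± 0.17 (SE, adjusted p = 0.159 by limma over all probe sets). There the groups overlapped through control 5, which read 8.18, while the other controls read 8.61 to 9.32. The remaining Ccn1 probe sets were dim, with means of 4.95 and 4.68 against a median of 6.13 over all probe sets, and differed by −0.29 and −0.26 (adjusted p = 0.211 and 0.0660 by limma). With the mean of all 4 probe sets in place of the brightest, Ccn1 fell by 0.38 on the log2 scale (adjusted p = 0.0116 by limma). Ccn2 had 1 probe set. Over all probe sets 5.40% were called, and of the 18 probe sets of the 8 genes these were the brightest of Ccn1 and that of Ccn2. The suffix _x_at of the brightest Ccn1 probe set is the maker's mark for probe sets with probes that may also match other transcripts.

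**Figure D3:**
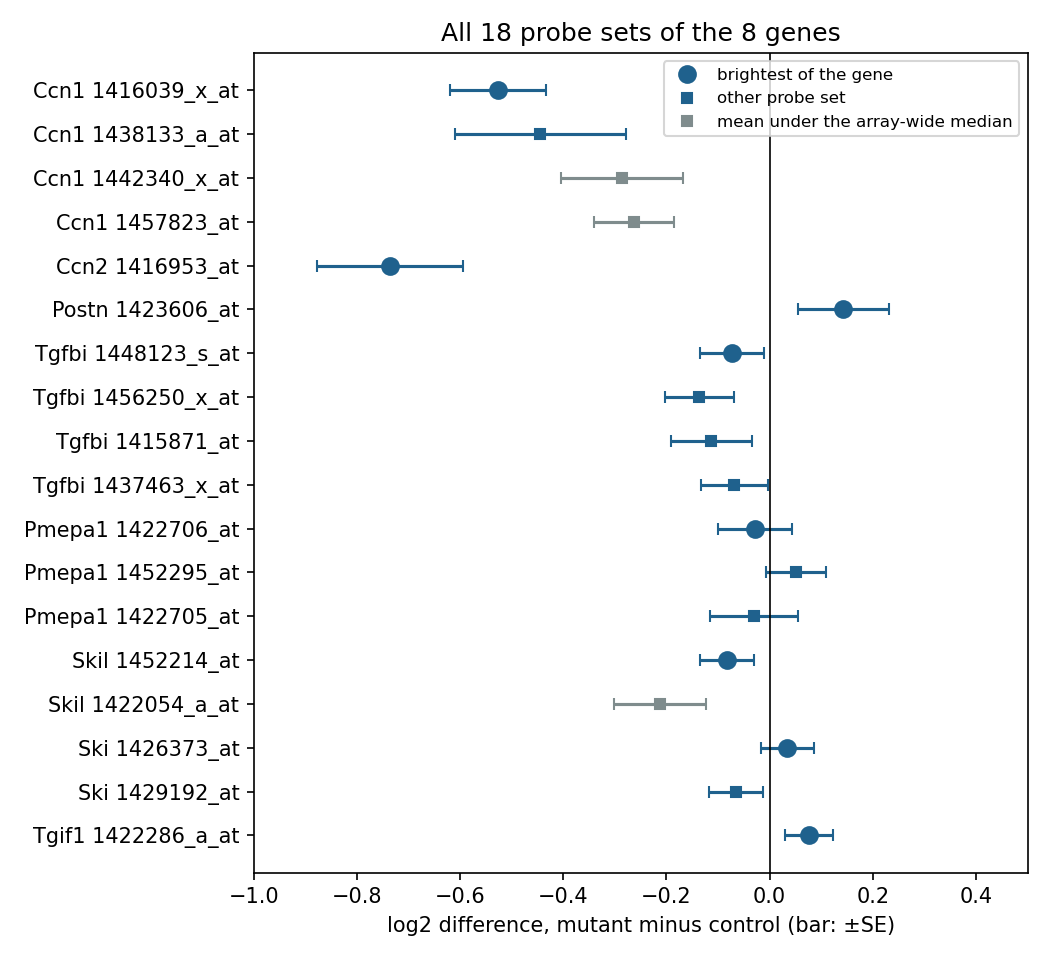
Log2 difference, mutant minus control (x axis, points, with bars of ±SE from the fit over all probe sets), for the 18 probe sets of the 8 genes, with the brightest of each gene as a circle and dim ones in grey. The 4 Ccn1 probe sets and the Ccn2 probe set lie left of 0 by 0.26 to 0.74, and the others within 0.22 of 0.

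Postn and Tgfbi, the fasciclin-domain matrix proteins, moved little. Postn encodes periostin, which binds integrins and helps to cross-link collagen, and is made by mesenchyme, periosteum and developing valves. Its signal was 12.86 at the lowest, 13.04 at the median and 13.30 at the highest in mutants, against 12.81, 12.88 and 13.13 in controls. Mutants 1 and 2, at 13.27 and 13.30, were above every control, and the other 4 lay within the control range. The difference was 0.14 ± 0.09 (SE, adjusted p = 0.348 by limma), with a 95% interval from −0.04 to 0.33, and without mutants 1 and 2 it was 0.04 (adjusted p = 0.876).

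Tgfbi encodes a TGF-β-induced adhesion protein that binds collagens and integrins. Its 4 probe sets were all slightly lower, by 0.07 to 0.14, and none passed. The brightest read 12.61 at the lowest, 12.76 at the median and 12.85 at the highest in mutants, against 12.65, 12.83 and 12.93 in controls. The difference of −0.07 ± 0.06 (SE, adjusted p = 0.510 by limma) had a 95% interval from −0.20 to 0.06. Control 2 was the highest control for Tgfbi as for Ccn1, Ccn2, Postn and Ski. The difference between Postn and Tgfbi on an array was 0.34 ± 0.17 in mutants and 0.12 ± 0.08 in controls (SD, n = 6 each), a change of 0.22 that did not pass over the 28 pairs (exact permutation p = 0.0281, adjusted p = 0.0606).

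The feedback inhibitors lay within narrow bounds. Pmepa1 encodes a membrane protein that binds receptor-activated SMADs and keeps them from the receptor. Its brightest probe set read 9.50 at the lowest, 9.70 at the median and 9.80 at the highest in mutants, against 9.53, 9.69 and 9.84 in controls. Mutant 5 lay just below the lowest control, and the other 5 mutants lay within the control range. It differed by −0.03 ± 0.07 (SE, adjusted p = 0.856 by limma), and the other Pmepa1 probe sets by 0.05 and −0.03. The 95% interval of the brightest ran from −0.18 to 0.12.

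Skil and Ski encode the related corepressors SnoN and SKI, which hold SMAD complexes in a repressed state and are degraded when TGF-β arrives. Skil is itself a rapid target of the pathway. Its brightest probe set read 10.62 at the lowest, 10.68 at the median and 10.78 at the highest in mutants, against 10.69, 10.76 and 10.92 in controls. Of the mutants, 3 lay below every control, and the difference of −0.08 ± 0.05 (SE, adjusted p = 0.334 by limma) did not pass. A dim second Skil probe set, with a mean of 5.53, differed by −0.21 ± 0.09 (SE, adjusted p = 0.219 by limma over all probe sets).

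Ski read 11.13 at the lowest, 11.24 at the median and 11.34 at the highest in mutants, against 11.05, 11.22 and 11.29 in controls. The groups overlapped almost entirely. Its probe sets differed in opposite directions, by 0.03 and −0.06, and neither passed (adjusted p = 0.811 and 0.594 by limma over all probe sets).

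Tgif1, a homeodomain corepressor that binds SMAD2 and SMAD3, had the smallest spread of the 8 genes, with an SD of 0.06 in mutants and 0.05 in controls. It read 9.91 at the lowest, 9.995 at the median and 10.10 at the highest in mutants, against 9.85, 9.93 and 9.98 in controls. On 5 of 6 mutant arrays it was above every control, but the difference was only 0.08 ± 0.04 (SE, adjusted p = 0.308 by limma). For the brightest probe sets of all 6 genes that did not pass, the 95% intervals stayed within a 1.26-fold change in either direction. Their other probe sets, such as the dim one of Skil, are not covered by this bound. These intervals hold smaller changes in both directions.

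The profiles most like that of Ccn1 over the 12 arrays were those of Ptpn21, a tyrosine phosphatase, Nectin3, an adhesion molecule of cell junctions, and Ptges3l. Likeness was the root-mean-square difference between log2 profiles centred on their own means, taken over 12174 genes at or above the median brightness, and came to 0.10 for each of the 3 genes, where Ccn1 itself varied by 0.31 around its mean. They differed by −0.48, −0.40 and −0.63, and the call of Nectin3 ended without control 3, mutant 4 and mutant 6 (−0.33, adjusted p = 0.0644 by limma). Genes picked for likeness to Ccn1 over these same arrays share its genotype difference through that choice, so these falls are no separate result.

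The profiles most like that of Ccn2 were those of the growth factor gene Fgf7 (0.11), the muscle ubiquitin ligase subunit gene Asb2 (0.15) and Tcap (0.16), which encodes the Z-disc protein telethonin. Ccn2 itself varied by 0.45 around its mean. Fgf7 read 9.08 ± 0.26 in mutants and 9.76 ± 0.24 in controls (SD, n = 6 each), a difference of −0.67 ± 0.13 (SE, adjusted p = 0.00432 by limma), and Asb2 and Tcap differed by −0.73 and −0.75. Here too the falls and the p value follow from the choice by likeness over the same arrays and are no separate result. For the 6 members that did not pass, the nearest gene was Lamp2 for Postn, Galnt11 for Tgfbi, Map3k11 for Pmepa1, Ermard for Skil, Cotl1 for Ski and Trpc4ap for Tgif1, at 0.03 to 0.06.

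Close relatives of the matrix members did not pass. Of 6 measured genes, the 4 other CCN family members Ccn3, Ccn4, Ccn5 and Ccn6 and the fasciclin-domain receptors Stab1 and Stab2, none was called, and the median was −0.02. Of these 4 were dim. Ccn5, with the smallest p, differed by −0.12 ± 0.07 (SE, adjusted p = 0.281 by limma).

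Other genes known to answer to TGF-β split in direction. Of 23 measured, 4 rose and 4 fell, with a median of 0.03, and 2 rose and 4 fell both without control 3, mutant 4 and mutant 6 and without mutants 1 and 2. With the replicate number as a block 2 rose and 5 fell. Over all 18193 genes, 6.30% rose and 4.80% fell. Leaving out those 3 arrays took the calls over all genes from 2020 to 836, and leaving out mutants 1 and 2 took them to 875. Tagln and Acta2 are also on the smooth muscle list below. Tagln, an actin-binding protein of smooth and embryonic muscle, fell by 0.92 on the log2 scale, Cdkn1a, a cell cycle inhibitor, by 0.60 and Acta2, smooth muscle actin, by 0.45, while Angptl4, a secreted inhibitor of lipoprotein lipase, rose by 0.66. Averaged over its probe sets Angptl4 rose by 0.37 (adjusted p = 0.00491 by limma). The inhibitory Smad7 differed by 0.01 ± 0.07 (SE, adjusted p = 0.946 by limma), a gene named after its value was seen. Of 12 genes that answer to BMP, 4 rose and 1 fell, with a median of 0.21. Without control 3, mutant 4 and mutant 6 these counts were 1 and 0, and without mutants 1 and 2 they were 2 and 0, with medians of 0.21 and 0.18.

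Among 22 other genes listed as targets of YAP and TEAD, 5 fell and 3 rose, with a median of 0.01. Ankrd1, an ankyrin repeat protein that is also a gene of striated muscle, fell by 1.67, Amotl2, an angiomotin that binds YAP, by 0.44 and Fjx1, a secreted kinase relative, by 0.38 on the log2 scale. Asap1, an Arf GTPase activator, rose by 0.31, and its call ended with the mean of all its probe sets (0.11, adjusted p = 0.159 by limma). Of 15 genes of the Hippo pathway and its TEAD factors, 3 fell and 1 rose, with a median of −0.06. These were Tead4 (−0.38), Vgll2 (−0.56) and Vgll3 (−0.36), partners of transcription in muscle, and the kinase Lats1 (0.19). The mean signal of the 15 genes per array ran from 10.05 to 10.13 in mutants and from 10.16 to 10.23 in controls, without overlap (exact permutation p = 0.00216, not adjusted). That mean includes the 3 called falls and was not taken without them, and of the 15 genes 9 lay below 0 and 6 above. The mean of the 12 BMP genes did not overlap either, at 8.78 to 8.94 in mutants and 8.62 to 8.66 in controls, with the same p. The call of Vgll3 ended in 12 of 21 alternatives and that of Lats1 in 8. That of Vgll2 ended without control 3 (−0.53, adjusted p = 0.0507) and without control 3, mutant 4 and mutant 6 together (−0.42, adjusted p = 0.0552).

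Of 18 corepressors, ubiquitin ligases and homeodomain partners that act on SMADs, 3 rose and 2 fell, with a median of 0.06. Rnf111, the ligase also called Arkadia that degrades SKI and SnoN, rose by 0.24 (adjusted p = 0.0160 by limma). Meis1 and Meis2, homeodomain partners of the same class as Tgif1, rose by 0.41 and 0.27, and the ligase Nedd4l fell by 0.31. Without control 3, mutant 4 and mutant 6 Rnf111 differed by 0.20 (adjusted p = 0.129), Nedd4l by −0.31 (0.0883) and Meis2 by 0.26 (0.142), and the call of Meis2 ended in 10 of 21 alternatives. Meis1 differed by 0.24 with the mean of its probe sets (adjusted p = 0.0587). Of 19 SMADs, ligands and receptors, 3 rose and 1 fell, with a median of 0.05, and none of these calls held without control 3, mutant 4 and mutant 6 or without mutants 1 and 2. Calls over all 18193 genes also went from 2020 to 836 and 875 in those fits. Of 15 integrins and other binding partners of the matrix members, 2 rose and 1 fell, with a median of 0.08, and 0 rose and 1 fell in both of those fits. Beside the counts of these lists, 11.1% of all genes were called in the main fit, 6.30% higher and 4.80% lower.

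**Figure D4:**
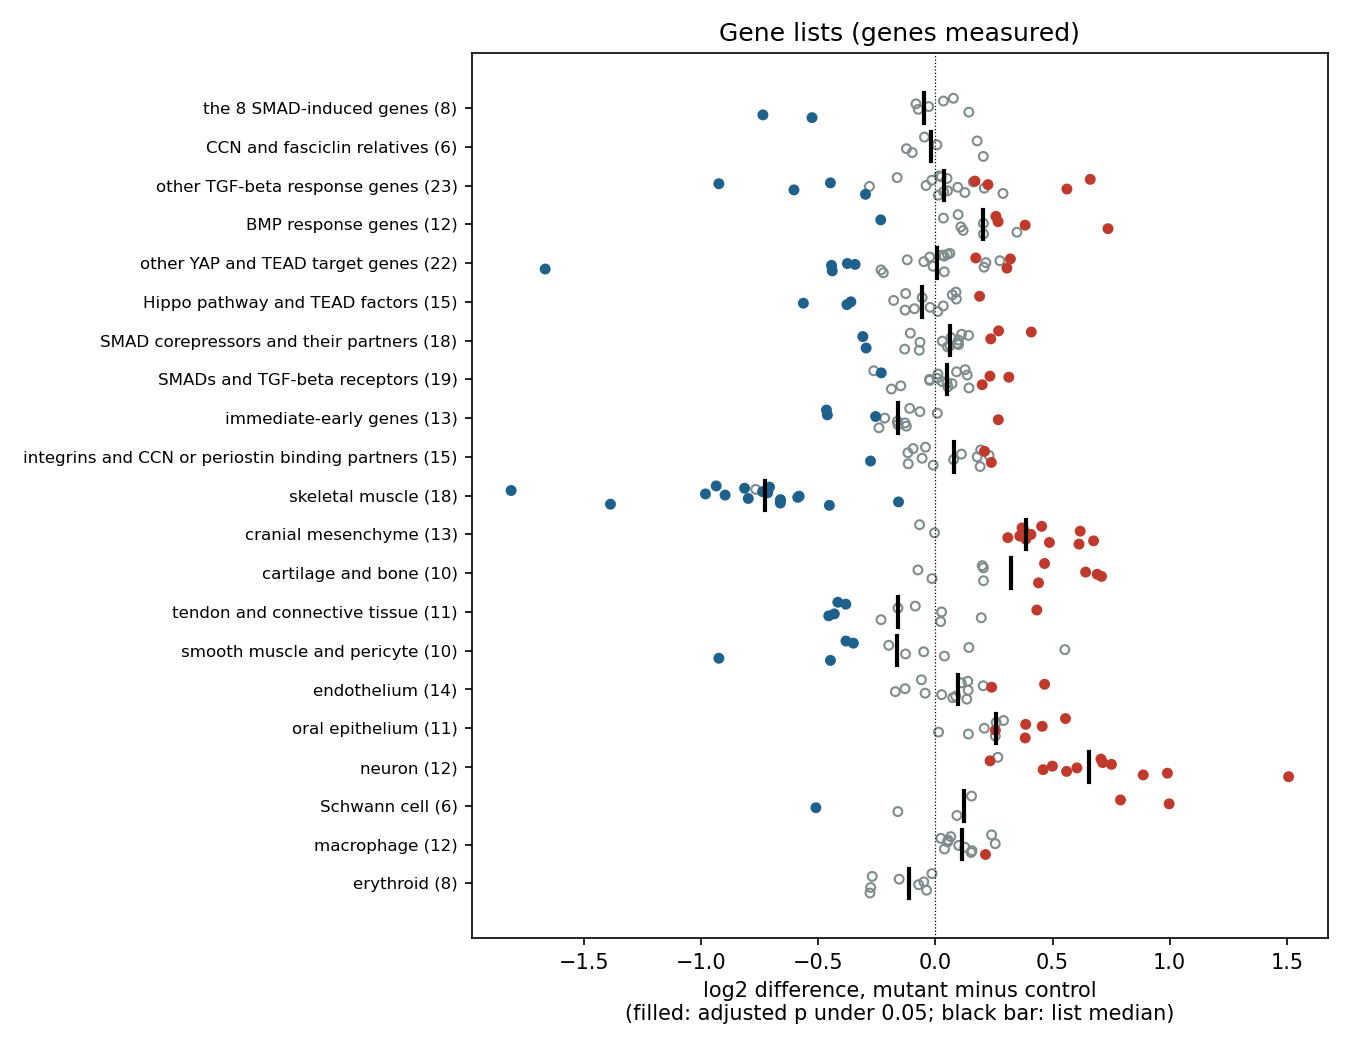
Log2 difference, mutant minus control (x axis), of the genes of each list (rows, with the number measured), with filled points for genes that passed (blue lower, red higher) and a black bar at the list median. Ccn2 and Ccn1 are the filled points of the top row, the skeletal muscle list lies left of 0, and the cranial mesenchyme and neuron lists lie mostly to the right.

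The makeup of the tissue RNA differed between the same arrays. Of 18 skeletal muscle markers 17 fell, 0 rose and the median was −0.73, and their mean signal per array ran from 11.14 to 11.65 in mutants, against 11.93 to 12.44 in controls. Of 10 smooth muscle and pericyte markers 4 fell and none was called higher (8.76 to 8.96 in mutants, against 8.84 to 9.18 in controls). Of these 10, 3 lay above 0, the highest at 0.55, and the fall of Abcc9 lost its call in 16 of 21 alternatives. Of 11 tendon and connective tissue markers 4 fell and 1 rose (8.98 to 9.34, against 9.14 to 9.58). Of 13 immediate-early genes, which include responses to dissection, 3 fell and 1 rose (8.07 to 8.20, against 8.15 to 8.37). Of the 13, 11 lay below 0, with a median of −0.16. Btg2 (−0.46, adjusted p = 0.0152 by limma) and Dusp1 (−0.46, adjusted p = 0.00339) fell by nearly equal sizes. The call of Btg2 ended without control 3, mutant 4 and mutant 6 (adjusted p = 0.116) and without mutants 1 and 2 (0.0536). In the other direction, 11 of 13 cranial mesenchyme markers rose (9.44 to 9.72, against 9.14 to 9.37), as did 11 of 12 neuron markers (7.997 to 8.65, against 7.51 to 7.79), 5 of 10 of cartilage and bone (6.93 to 7.11, against 6.59 to 6.86) and 5 of 11 of oral epithelium (10.86 to 11.19, against 10.51 to 10.88). Of 14 endothelium markers 2 rose, of 6 Schwann cell markers 2 rose and 1 fell, of 12 macrophage markers 1 rose, and of 8 erythroid markers none was called. Several of these counts were smaller with arrays left out, as was the number of calls over all genes. Without control 3, mutant 4 and mutant 6, the falls numbered 15 for skeletal muscle, 3 for smooth muscle, 0 for tendon and 1 for immediate-early genes, and the rises 7 for cranial mesenchyme, 10 for neurons, 5 for cartilage and bone, 1 for oral epithelium, 1 for endothelium and 0 for macrophages. Without mutants 1 and 2, the falls numbered 15, 2, 1 and 1 and the rises 7, 8, 4, 1, 1 and 0 in the same order. With the replicate number as a block, 1 smooth muscle marker rose and 3 fell. In that fit 2 macrophage markers rose, though the Csf1r call ended (adjusted p = 0.0900 by limma), and Hba-x of the erythroid list fell (adjusted p = 0.0391). The defining markers of the labelled tissue were present, none of the skeletal muscle markers being dimmer than the median of all probe sets. What part these shifts have in the falls of Ccn1 and Ccn2 was not tested.

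Facts of the arrays that bear on these values are few. Array medians ran from 6.10 to 6.17 in mutants and from 6.09 to 6.16 in controls, and the 3′ to 5′ difference of the Gapdh control probe sets did not separate the groups (exact permutation p = 0.271). That of the beta-actin control probe sets averaged 0.44 in mutants and 0.40 in controls, with overlap (exact permutation p = 0.110). Smad4 read 12.14 ± 0.27 in mutants and 12.29 ± 0.07 in controls (SD, n = 6 each; −0.15, adjusted p = 0.427 by limma), a difference that was −0.04 without mutant 1, and whether its probes lie in the deleted part was not checked. Control 3, mutant 4 and mutant 6 carried signal of both Xist and Y-linked genes. Without these 3 arrays Ccn1 differed by −0.45 (adjusted p = 0.0456 by limma) and Ccn2 by −0.59 (0.0428), and without mutants 1 and 2, left out because an earlier analysis of these values found them farthest on the first principal component, Ccn1 differed by −0.56 (adjusted p = 0.0108 by limma) and Ccn2 by −0.82 (0.0101).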

How the data were processed

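Expression was measured on 12 single-colour arrays, 6 mutant and 6 control, grouped by the titles in the labels. The authors deposited log2 values per probe set made with RMA, per the submitters' processing notes, which corrects background, normalises arrays to a shared distribution and combines probes. No source used here names the RMA software, and base 2 is inferred because values lie between 2.57 and 15.09. RMA compresses changes of dim probe sets, and signals carry no counting depth, so the number of arrays limits precision. After 64 control probe sets were left out, 34945 probe sets had 1 gene symbol in GEO's platform annotation, 932 several and 9160 none, and genes were named only from the first kind. Symbols of 34741 probe sets were matched by gene identifier to RefSeq (GRCm38.p6).

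The mutant and control arrays were set against each other in limma (version 3.58.1, R version 4.3.3) by a 2-sided moderated test of genotype and no covariate, tested on simulated data. Exact permutation tests used scipy 1.17.1. The members, gene lists, alternatives and the exclusions of arrays were chosen with earlier results of these data known, and the 28 pair tests after the values were seen. Genes named besides the members were up to 4 passing genes of smallest p in a list, or the smallest p where none passed, and the 3 nearest profiles of each member. The alternatives were quantile normalisation, median centring, averaged probe sets per gene, single probe sets, a filter on dim probe sets, robust variance with a trend, weighted arrays, a block for replicate number, each array left out, and the exclusions. Correlations between arrays ran from 0.991 to 0.997, with no duplicates. Upstream sequences are from RefSeq.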

Additional observations from a re-analysis of the deposited data

Results flagged for a closer look

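Within groups of 6 arrays, 42 groups of values were examined (the 18 probe sets of the members and the 3 of Smad4, in each genotype), and in 5 of them 1 array stood far from the others by Dixon's test. Chance flags about 1 group in 20. A dim Ccn1 probe set, 1442340_x_at, read 4.66 on control 5, where the nearest other control read 5.15. The Pmepa1 probe set 1452295_at read 8.05 on control 6, with the next control at 7.87. All 3 Smad4 probe sets were lowest on mutant 1, at 11.58, 11.32 and 9.89, where the nearest other mutants read 12.18, 12.05 and 10.60. Mutant 1 was not at either end of the mutants for Ccn1 or Ccn2.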

How the results depend on the processing

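Ccn1 and Ccn2 kept their fall and their call in all 22 alternatives, with differences of −0.58 to −0.38 and −0.82 to −0.59, and the other 6 genes passed in none of theirs. Not all of these could change the values. The fit of single probe sets read the same brightest probe set of each gene, and averaging left Ccn2, with 1 probe set, unchanged. The less bright Ccn1 probe sets did not pass on their own. With 1 array left out, Ccn1 lay between −0.58 and −0.46 and Ccn2 between −0.82 and −0.64 (highest adjusted p 0.00817 and 0.0143 by limma). The sign of the small differences changed for Pmepa1 without mutant 5 or control 1 (range with 1 array left out −0.063 to 0.0067) and for Ski with averaged probe sets (−0.015). Among genes of like profile, all uncalled, averaging turned Rasgrp3 (−0.10), Evi5 (0.017), Trpc4ap (−0.017) and Pcgf3 (−0.0024). Map3k11 turned after quantile normalisation (−0.00056), without the 3 arrays named below (−0.023), without mutants 1 and 2 (−0.019) and with 1 array left out (−0.015 to 0.060). Without mutants 1 and 2 Rasgrp3 (−0.0056) and Tspan3 (−0.0062) turned, and Tspan3 ran from −0.0067 to 0.026 with 1 array left out. Of all genes 2020 passed. This became 836 without the 3 arrays with signal of both sexes and 875 without mutants 1 and 2, both with fewer samples, and 1398 to 2103 with 1 array left out. The replicate number as a block gave 1932 genes and the same 2 members, with adjusted p of 0.00582 for Ccn1 and 0.00201 for Ccn2. Same-numbered arrays correlated at −0.06 to 0.24 in their deviations, over 0.1 for 5 of 6 numbers, and for 4 of 6 this exceeded the highest correlation with another number. This is a hint from the data of something shared by number. The labels name no shared litter or batch, so the block was not used as the design. The list counts without arrays and with the block were added after the values were seen. RMA would hide a change common to most transcripts.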
